A study of Saccharomyces cerevisiae with 6 samples.

Results

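The transcriptome of a yeast strain lacking CYC8 was compared with that of its wild-type parent after growth on mannose. The comparison rests on 2 of the 6 libraries of the series, 1 from the deletion strain and 1 from wild type, and covers all 6696 open reading frames listed in the deposited counts. Of these, 6146 passed the filter on low counts and 550 did not. The deletion group was Saccharomyces cerevisiae BY4741 cyc8[delta]::kanMX4, in which a drug resistance cassette replaces CYC8, in YPMan for 3 h. The wild-type group was BY4741 in the same medium for the same time. YPMan is 1% yeast extract and 2% peptone with 2% mannose, and per the labels it served to produce free O-glycans, the sugar chains released from O-mannosylated proteins. The other 4 libraries, 2 of the deletion and 2 of wild type, came from YPGlc, with 2% glucose in place of mannose and also 3 h in the sample labels. The growth protocol in the labels gives 3 h for mannose only, so the time in glucose, and with it the match of times between the sugars, is uncertain. BY4741 is a haploid laboratory strain of mating type a with auxotrophic marker mutations, which both genotypes share. The labels name 1 deletion strain and do not say whether replicate libraries came from separate cultures.

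Cyc8 (also called Ssn6) and Tup1 form a corepressor that has no sequence-specific DNA binding of its own. Proteins such as Mig1, Nrg1, Rox1 and the a1-alpha2 complex bring it to promoters, where it keeps genes for other sugars, low oxygen, stress, mating and sporulation at low levels. Mannose enters glycolysis through hexose kinases and phosphomannose isomerase, and it also supplies GDP-mannose, the sugar donor for the mannose chains of wall and secreted proteins.

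The libraries held 26195734 counts for the deletion in mannose, 39015900 for wild type in mannose, 30702206 and 39266407 for the deletion in glucose, and 37954565 and 44084216 for wild type in glucose. Values are CPM (counts scaled to a common library size) with library sizes scaled by the TMM method, and a log2 fold is the log2 of the deletion level over the wild-type level with a prior count of 2. Each mannose group is 1 library, so no mannose value carries a replicate error, and no test was made. Differences between glucose replicates served as a guide to spread, on the assumption that mannose libraries vary alike. Of the 6146 reading frames, 0.748% differed at least 2-fold between the deletion replicates and 1.04% between the wild-type replicates. The deletion library in mannose stood apart in composition: reading frames of the mitochondrial genome took 2.65% of its counts (95% Wilson interval 2.65% to 2.66%) and 0.251% (0.250% to 0.253%) in wild type in mannose, against 0.744% and 0.857% in the deletion in glucose and 0.557% to 0.627% in wild type in glucose. These intervals cover counting error only.

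CYC8 itself (YBR112C, chromosome II, 462870 to 465770, 1 coding exon, R64 reference) checks the labels. It had 7.92 CPM in the deletion and 197 CPM in wild type in mannose. In glucose it had 2.17 and 2.92 CPM in the deletion and 200 and 207 CPM in wild type. The log2 fold was -4.63 in mannose and -6.30 in glucose, so every deletion library lay far below every wild-type library, although 180 CYC8 counts remained in the deletion in mannose. TUP1, which encodes the partner of Cyc8, had 183 CPM in the deletion and 316 CPM in wild type in mannose, a log2 fold of -0.79. The markers LEU2, MET17 and URA3 had 0 counts in all 6 libraries, and a count of 0 leaves room for up to 3 counts, 0.0667 to 0.132 CPM by library. HIS3, the other marker, of which BY4741 lacks only a part, had 25.6 CPM in the deletion and 32.7 CPM in wild type in mannose, and 583 to 2151 counts over the 6 libraries.

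In mannose 1482 reading frames (24.1% of those measured) were at least 2-fold higher in the deletion and 1304 (21.2%) were at least 2-fold lower. Counts in the gene lists stand against these shares of all reading frames. The large differences were mostly on the higher side: 751 reading frames reached 4-fold upward and 237 downward, while 250 reached 16-fold upward and 5 downward. A second limit was taken in 10 bands of expression as the 99th percentile of the absolute replicate difference in glucose, and it ran from 1.75 on the log2 scale in the lowest band to 0.33 in the sixth. Beyond it lay 2121 reading frames higher (34.5%) and 2289 lower (37.2%). The median log2 fold over all reading frames was -0.07, and the balance depended on scaling. With library totals in place of TMM factors the median moved by -0.19 and the counts were 1283 higher and 1639 lower, and with upper-quartile factors it moved by -0.32 and they were 1179 higher and 1897 lower.

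**Figure D1:**
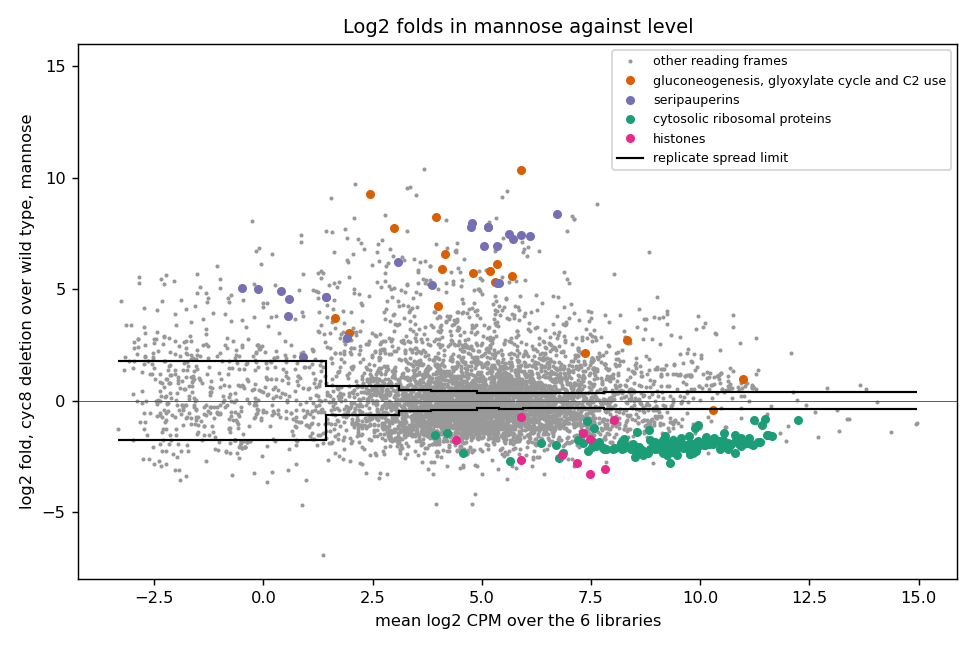
Log2 fold of the cyc8 deletion over wild type in mannose (vertical axis) against mean log2 CPM over the 6 libraries (horizontal axis), 1 point per reading frame, 4 gene groups in colour. Black steps give the replicate spread limit from the glucose pairs, which narrows from 1.75 in the lowest band to 0.33 in the sixth. The seripauperins lie above it, and the cytosolic ribosomal proteins and histones lie below it.

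The largest fold was that of HXT13, a hexose transporter gene described with its family further on, at 10.38 on the log2 scale. PCK1, which encodes phosphoenolpyruvate carboxykinase, the first committed enzyme of gluconeogenesis, had 10508 CPM in the deletion and 8.08 CPM in wild type in mannose, a log2 fold of 10.34. In glucose it had 95.6 and 124 CPM in the deletion and 6.78 and 6.36 CPM in wild type, so the mannose deletion library was far above all 5 others. SPG4, a gene needed for survival at high temperature in stationary phase, had 369 CPM in the deletion and 0.388 CPM in wild type (15 counts), a log2 fold of 9.70. ADY2, which encodes an acetate transporter, had 638 CPM in the deletion and 0.984 CPM in wild type (38 counts), a log2 fold of 9.26. DAK2, a dihydroxyacetone kinase gene, reached a log2 fold of 9.08 and RCK1, a protein kinase gene, 8.21. The 250 bases before and 50 after the start codon are shown for the 3 genes with the largest folds that have no near-identical copy. They are R64 sequence from RefSeq, 5′ to 3′ on the coding strand, and capitals mark the motifs named further on, on either strand.
PCK1 promoter, chrXI:630902-631201, plus strand: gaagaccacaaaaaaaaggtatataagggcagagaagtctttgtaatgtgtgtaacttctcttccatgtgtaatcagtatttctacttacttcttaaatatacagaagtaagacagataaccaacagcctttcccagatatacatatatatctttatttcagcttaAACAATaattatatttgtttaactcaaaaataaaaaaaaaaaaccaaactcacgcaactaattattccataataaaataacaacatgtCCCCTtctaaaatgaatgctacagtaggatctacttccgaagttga
SPG4 promoter, chrXIII:482764-483063, plus strand: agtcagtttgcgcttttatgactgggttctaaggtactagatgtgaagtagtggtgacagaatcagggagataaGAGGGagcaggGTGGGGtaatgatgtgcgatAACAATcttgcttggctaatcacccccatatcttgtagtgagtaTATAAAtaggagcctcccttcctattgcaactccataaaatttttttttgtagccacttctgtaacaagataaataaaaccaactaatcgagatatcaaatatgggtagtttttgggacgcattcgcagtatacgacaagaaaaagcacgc
ADY2 promoter, chrIII:133075-133374, minus strand: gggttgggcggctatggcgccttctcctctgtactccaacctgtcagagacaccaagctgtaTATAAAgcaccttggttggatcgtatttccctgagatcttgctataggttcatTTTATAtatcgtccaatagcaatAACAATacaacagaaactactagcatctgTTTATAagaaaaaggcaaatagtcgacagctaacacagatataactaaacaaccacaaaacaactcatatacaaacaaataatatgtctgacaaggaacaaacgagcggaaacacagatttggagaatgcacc

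At the other end, 5 reading frames were at least 16-fold lower in the deletion: AZR1, OPT2, FRE7, CYC8 and HO. AZR1, which encodes a plasma membrane transporter linked to azole resistance, had 0.264 CPM (6 counts) in the deletion and 38.4 CPM (1483 counts) in wild type in mannose, a log2 fold of -6.91. In glucose it had 0.336 and 0.330 CPM in the deletion and 14.9 and 10.1 CPM in wild type, so all 3 deletion libraries lay below all 3 wild-type ones. FRE7, of the ferric and cupric reductase family, had 2.64 CPM in the deletion and 67.7 CPM in wild type in mannose, a log2 fold of -4.65. OPT2, of the oligopeptide transporter family, had 6 counts in the deletion and 318 in wild type, a log2 fold of -4.70. HO, the endonuclease gene of mating-type switching, had 4.57 CPM in the deletion and 84.6 CPM in wild type, a log2 fold of -4.19. The same window is shown for the lowest genes besides CYC8 that reached 10 CPM in either mannose library and have no near-identical copy.
AZR1 promoter, chrVII:942556-942855, plus strand: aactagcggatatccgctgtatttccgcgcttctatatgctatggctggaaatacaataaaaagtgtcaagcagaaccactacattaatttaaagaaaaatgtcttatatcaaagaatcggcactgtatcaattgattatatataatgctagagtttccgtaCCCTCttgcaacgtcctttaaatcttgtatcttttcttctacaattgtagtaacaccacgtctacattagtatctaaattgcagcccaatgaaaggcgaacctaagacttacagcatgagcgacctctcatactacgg
FRE7 promoter, chrXV:40498-40797, plus strand: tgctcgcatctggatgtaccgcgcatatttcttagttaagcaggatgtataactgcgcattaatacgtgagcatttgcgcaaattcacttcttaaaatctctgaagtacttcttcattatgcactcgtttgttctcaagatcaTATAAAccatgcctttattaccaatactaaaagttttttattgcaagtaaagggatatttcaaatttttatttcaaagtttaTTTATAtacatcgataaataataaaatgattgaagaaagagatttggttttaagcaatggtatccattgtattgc

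In these windows 6 motifs were searched on both strands. For the repressor Mig1 the letters were CCCCGC, with CCCCAC as the variant also taken. For Nrg1 they were CCCTC, and for the stress response element of Msn2 and Msn4 AGGGG. The core of the Rox1 site was ATTGTT. For Sko1 and related factors the search used ACGTCA, and the TATA box was TATAAA. Matches to the Nrg1 and stress response letters overlap wherever CCCCTC occurs. The SPG4 window held the Mig1 letters GTGGGG at position -165 from the start codon, GAGGG at -176, AACAAT at -145 and TATAAA at -101. PCK1 held AACAAT at -84 and CCCCT at 4, inside the coding sequence. ADY2 held AACAAT at -112 and the TATA letters at -188, -135 and -83. AZR1 held only CCCTC, at -88, and FRE7 only the TATA letters, at -107 and -25. Across the windows of 233 reading frames at least 16-fold higher, 31.3% held AGGGG, against 11.1% of 207 at least 4-fold lower and 21.6% of all 5827. The Mig1 letters were in 11.2% of the higher, 3.87% of the lower and 6.71% of all windows, and TATAAA in 56.7%, 41.6% and 45.2%. For CCCTC the shares were 25.3%, 24.2% and 23.0%, for ATTGTT 38.6%, 31.4% and 35.4%, and for ACGTCA 5.15%, 5.80% and 7.59%. These shares describe letters in a window and not bound sites.

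**Figure D2:**
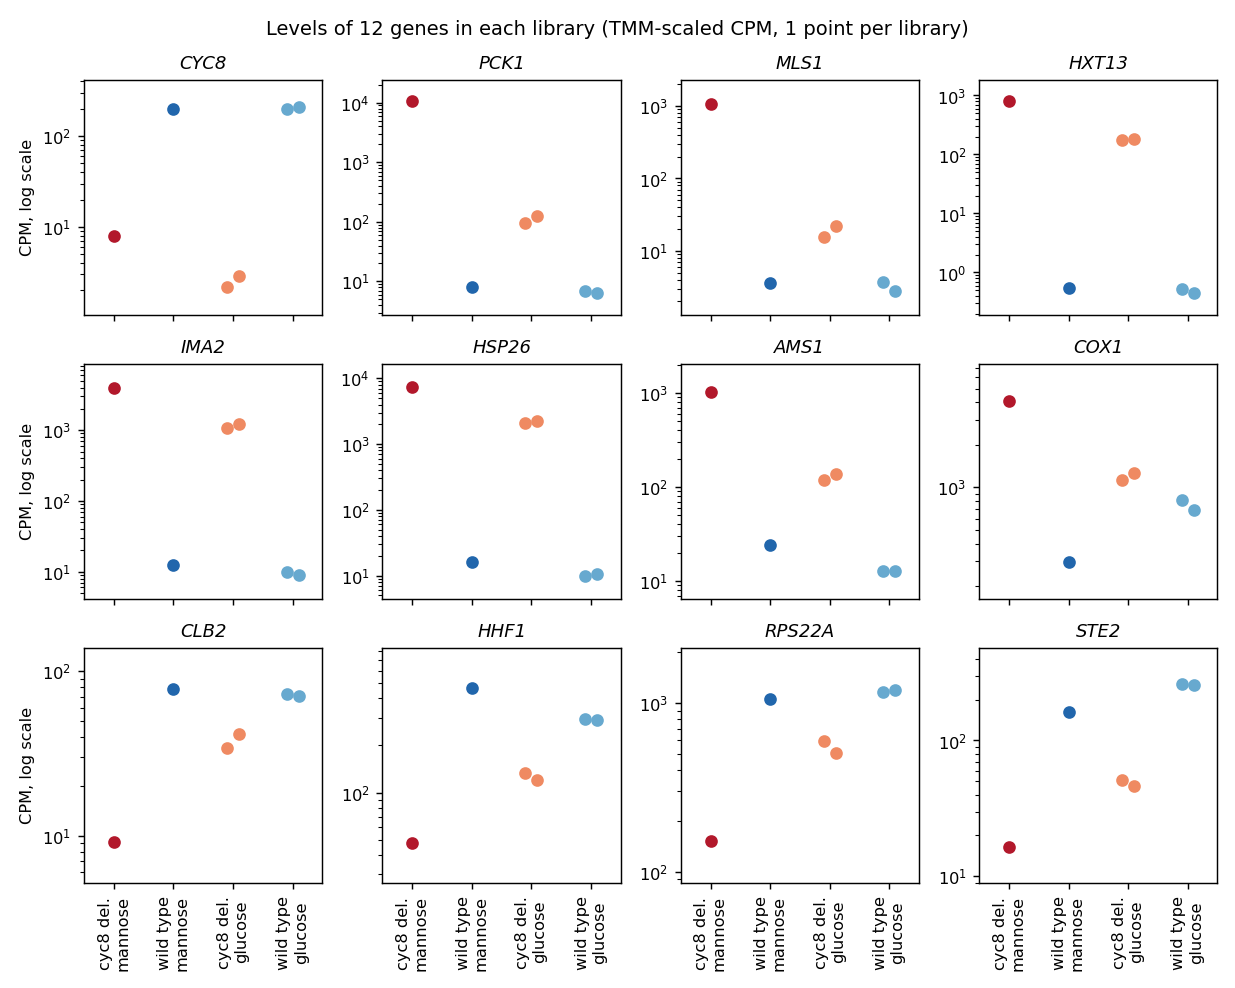
TMM-scaled CPM on log axes of 12 genes in each library, 1 point per library, in the order cyc8 deletion and wild type in mannose, then cyc8 deletion and wild type in glucose. PCK1, MLS1, HXT13, IMA2, HSP26 and AMS1 lie higher in the deletion in both sugars, and CYC8, CLB2, HHF1, RPS22A and STE2 lie lower. COX1 is highest in the deletion in mannose and lowest in wild type in mannose.

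Gluconeogenesis turns pyruvate and organic acids back into sugar, and the glyoxylate cycle builds them from acetate. In a list of 18 genes for these routes and for acetate, lactate and carnitine use, 16 were at least 2-fold higher in the deletion in mannose and 0 lower, with a median log2 fold of 5.66 against -0.07 over all reading frames. MLS1, the malate synthase gene of the glyoxylate cycle, had 1077 CPM in the deletion and 3.57 CPM in wild type in mannose, and 15.4 and 21.8 CPM in the deletion and 3.64 and 2.80 CPM in wild type in glucose. Its log2 fold of 8.21 in mannose stood beside 2.5 in glucose. CIT2, the peroxisomal citrate synthase gene, had 891 CPM in the deletion and 22.4 CPM in wild type in mannose, but 17.5 and 16.3 CPM in the deletion and 25.5 and 26.1 CPM in wild type in glucose, so only the mannose deletion library was high. IDP2, a cytosolic isocitrate dehydrogenase gene, reached 6.57 in mannose and 0.50 in glucose on the log2 fold scale, and SFC1, a mitochondrial succinate-fumarate carrier gene, 7.75 and 1.87. ICL1 (isocitrate lyase), at a log2 fold of 6.11, ACS1 (acetyl-CoA synthetase), at 5.88, and FBP1 (fructose-1,6-bisphosphatase), at 3.02, were picked after their values were seen. ALD6, a cytosolic aldehyde dehydrogenase gene, stood at 0.95, and ADH2, the alcohol dehydrogenase that consumes ethanol, at -0.43, with 1146 CPM in the deletion and 1543 CPM in wild type.

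Peroxisomal beta-oxidation, which shortens fatty acids, had 10 of 12 genes at least 2-fold higher, 0 lower and a median log2 fold of 2.84. POT1, the thiolase gene, had 97.5 CPM in the deletion and 0.984 CPM in wild type in mannose, a log2 fold of 6.55. CTA1, the peroxisomal catalase gene, had 170 CPM in the deletion and 5.26 CPM in wild type in mannose but 3.09 and 2.80 CPM in the deletion and 4.39 and 5.05 CPM in wild type in glucose, a log2 fold of 5.00 beside -0.67. Of the 15 TCA cycle genes 12 were at least 2-fold higher and 0 lower, with a median of 1.76. KGD1, for a subunit of alpha-ketoglutarate dehydrogenase, stood at 3.20, CIT1 (mitochondrial citrate synthase) at 2.90 and SDH1 (succinate dehydrogenase) at 2.64. LSC1, for a succinyl-CoA ligase subunit, differed least, with 143 CPM in the deletion and 148 CPM in wild type.

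Among 32 nuclear genes of the respiratory chain and ATP synthase, 17 were at least 2-fold higher and 1 was lower, with a median log2 fold of 1.04. The higher count was 13 with library totals, 12 with upper-quartile factors and 19 with trends on base composition and length removed. COX13, a cytochrome c oxidase subunit gene, had 549 CPM in the deletion and 61.9 CPM in wild type, a log2 fold of 3.15, and ATP2, the beta subunit gene of ATP synthase, had 6491 CPM in the deletion and 1361 CPM in wild type, a log2 fold of 2.25. The exception on the lower side was ATP20, a dimerisation subunit gene of ATP synthase, at -1.36. Of 8 listed genes of the mitochondrial genome 7 were measured, and all 7 were at least 2-fold higher, with a median log2 fold of 3.79 in mannose and -0.02 in glucose. COX1, a core subunit of cytochrome c oxidase, had 4097 CPM in the deletion and 297 CPM in wild type in mannose, against 1119 and 1262 CPM in the deletion and 818 and 697 CPM in wild type in glucose. For COX1 the deletion in mannose was the highest of the 6 libraries and wild type in mannose the lowest. VAR1, for a mitochondrial ribosomal protein, had 289 counts in the deletion and 5 in wild type in mannose. OLI1, for the ring subunit of ATP synthase, had 309 CPM in the deletion and 107 CPM in wild type in mannose, and 323 and 397 CPM in the deletion and 340 and 276 CPM in wild type in glucose, so there wild type in mannose alone was low. The part that the differing share of mitochondrial counts plays in these folds was not tested.

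Hexose transporters carry glucose, fructose and mannose into the cell. All 19 listed transporter and sensor genes were at least 2-fold higher in the deletion in mannose, with a median log2 fold of 2.40. The lowest stood at 1.04, however, and 17 of the 19 lay beyond the replicate spread limit. With library totals 16 reached 2-fold, and 14 did so with upper-quartile factors, as with trends on base composition and length removed. The polyol-related members HXT13, HXT15 and HXT16 led, at 10.38, 9.58 and 9.52. HXT13 had 795 CPM in the deletion and 0.544 CPM (21 counts) in wild type in mannose, and 175 and 180 CPM in the deletion and 0.532 and 0.445 CPM in wild type in glucose. HXT13 has a near-identical copy, HXT17, and HXT15 one in HXT16, so reads in the authors' counts may be shared between copies. The neighbours of HXT13 and HXT17, DSF1 beside HXT13 on chromosome V (19589 to 21097 and 21537 to 23231) and MAN2 beside HXT17 on chromosome XIV (774792 to 776300 and 772657 to 774351), are mannitol dehydrogenase genes. DSF1 had 2313 CPM in the deletion and 3.34 CPM in wild type in mannose, a log2 fold of 9.41, and MAN2, its near-identical copy, stood at 9.14. All 5 polyol dehydrogenase genes were at least 2-fold higher, including XYL2, for xylitol dehydrogenase, at 2.36. SOR1 and SOR2, at 5.79 and 5.85, are also near-identical copies, so these are not 5 separate measurements.

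Over the 19 transporter and sensor genes the mannose fold exceeded the glucose fold by at least 1 in 6 and was below it by at least 1 in 5, with a median difference of 0.27. HXT4 and HXT7 are described because they were among the genes with folds furthest below those in glucose. HXT4 had 645 CPM in the deletion and 53.7 CPM in wild type in mannose, against 2514 and 2537 CPM in the deletion and 11.9 and 10.8 CPM in wild type in glucose. HXT7, whose near-identical copy is HXT6, had 2271 CPM in the deletion and 1033 CPM in wild type in mannose, against 2526 and 2535 CPM in the deletion and 106 and 110 CPM in wild type in glucose. The deletion libraries were thus alike in both sugars for HXT7 and wild type was higher in mannose, with log2 folds of 1.14 and 4.55. RGT2 and HXT9 were at the foot of the list, at 1.04 and 1.12. HXT9 had 59 counts in the deletion and 45 in wild type in mannose, within its spread limit of 1.75. Among genes for maltose, isomaltose, sucrose and galactose use 17 of 20 were at least 2-fold higher and 0 lower, with a median of 2.75. Family members made up 13 of the 20, and IMA3 and IMA4 had equal counts in each library, so these are not 20 separate measurements. IMA2, an isomaltase gene of a family of near-identical copies, had 3990 CPM in the deletion and 12.6 CPM in wild type, a log2 fold of 8.30. SUC2, for invertase, was picked after its value was seen and had 1873 CPM in the deletion and 107 CPM in wild type, a log2 fold of 4.12. MPH2, MPH3 and GAL1 stayed under 2-fold, at 0.97, 0.87 and 0.64.

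Of the 9 listed hexose kinase and GDP-mannose supply genes 3 were at least 2-fold higher and 4 lower. The 3 higher were sugar kinase genes: EMI2 at a log2 fold of 3.22, GLK1 (glucokinase) at 2.83 with 3548 CPM in the deletion and 497 CPM in wild type, and HXK1 (hexokinase 1) at 2.32. HXK2, the hexokinase gene prominent in glucose, had 1473 CPM in the deletion and 1343 CPM in wild type, a log2 fold of 0.13. DPM1, for the synthase that passes mannose from GDP-mannose to dolichol phosphate, had 163 CPM in the deletion and 138 CPM in wild type, a log2 fold of 0.24. The 4 genes at least 2-fold lower act in mannose entry into glycolysis (PMI40) or between mannose 6-phosphate and the Golgi (SEC53, PSA1 and VRG4). They were PMI40 (phosphomannose isomerase), with 132 CPM in the deletion and 312 CPM in wild type, SEC53 (phosphomannomutase), with 138 CPM in the deletion and 496 CPM in wild type, PSA1 (GDP-mannose pyrophosphorylase), at -1.21, and VRG4 (the Golgi GDP-mannose transporter), at -1.69. In glucose these 4 stood at 0.20, -0.03, 0.23 and -0.22. The median of the 9 genes was 0.13, and it was -0.057 with library totals, -0.19 with upper-quartile factors and -0.44 with trends on base composition and length removed, while the counts of 3 higher and 4 lower were the same under each.

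Of 13 genes for O-mannosylation and O-glycan elongation, which build mannose chains on proteins, 0 were higher by 2-fold or more, beside 24.1% of all reading frames, and 4 lower, beside 21.2%. Their median log2 fold was -0.78. PMT4, for one of the protein O-mannosyltransferases, had 94.1 CPM in the deletion and 338 CPM in wild type in mannose, and 259 and 241 CPM in the deletion and 335 and 329 CPM in wild type in glucose, a log2 fold of -1.84 beside -0.41. PMT7 stood at -1.56 and MNT2, an alpha-1,3-mannosyltransferase gene, at -1.41, while KRE2, for the alpha-1,2-mannosyltransferase that adds early residues, stood at 0.48. With upper-quartile factors 9 of the 13 were at least 2-fold lower, and with library totals 5. Of 11 genes for the N-glycan outer chain 1 was higher, beside 24.1% of all reading frames, and 4 were lower, beside 21.2%. Their median was -0.27, and -0.95 with trends on base composition and length removed. MNN4, a regulator of mannosylphosphate transfer, stood at 1.6, and MNN11, MNN9 and MNN10 of the Golgi mannan polymerases at -1.65, -1.5 and -1.23.

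Free glycans from mannosylated proteins can be trimmed by vacuolar alpha-mannosidase, the product of AMS1. AMS1 had 1025 CPM in the deletion and 23.9 CPM in wild type in mannose, and 120 and 136 CPM in the deletion and 12.9 and 12.8 CPM in wild type in glucose, log2 folds of 5.42 and 3.31. Its receptors for transport to the vacuole were also at least 2-fold higher, ATG34 with 49 CPM in the deletion and 7.22 CPM in wild type, and ATG19 with 98.7 CPM in the deletion and 34.6 CPM in wild type. PNG1, the cytosolic peptide:N-glycanase that frees N-glycans, had 9.59 CPM in the deletion and 9.24 CPM in wild type. MNL1, for an ER mannosidase of glycoprotein degradation, stood at -1.30, the only one of the 8 genes at least 2-fold lower. The list's median was 0.31, and -0.011 with upper-quartile factors. Among vacuolar proteases 6 of 9 genes were at least 2-fold higher and 0 lower, led by PRB1 (proteinase B), with 1947 CPM in the deletion and 153 CPM in wild type, a log2 fold of 3.67. The higher count was 5 with library totals, 4 with upper-quartile factors and 5 with trends on base composition and length removed. In glucose 5 of the 9 were higher, with a median log2 fold of 1.37 beside 1.23 in mannose.

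**Figure D3:**
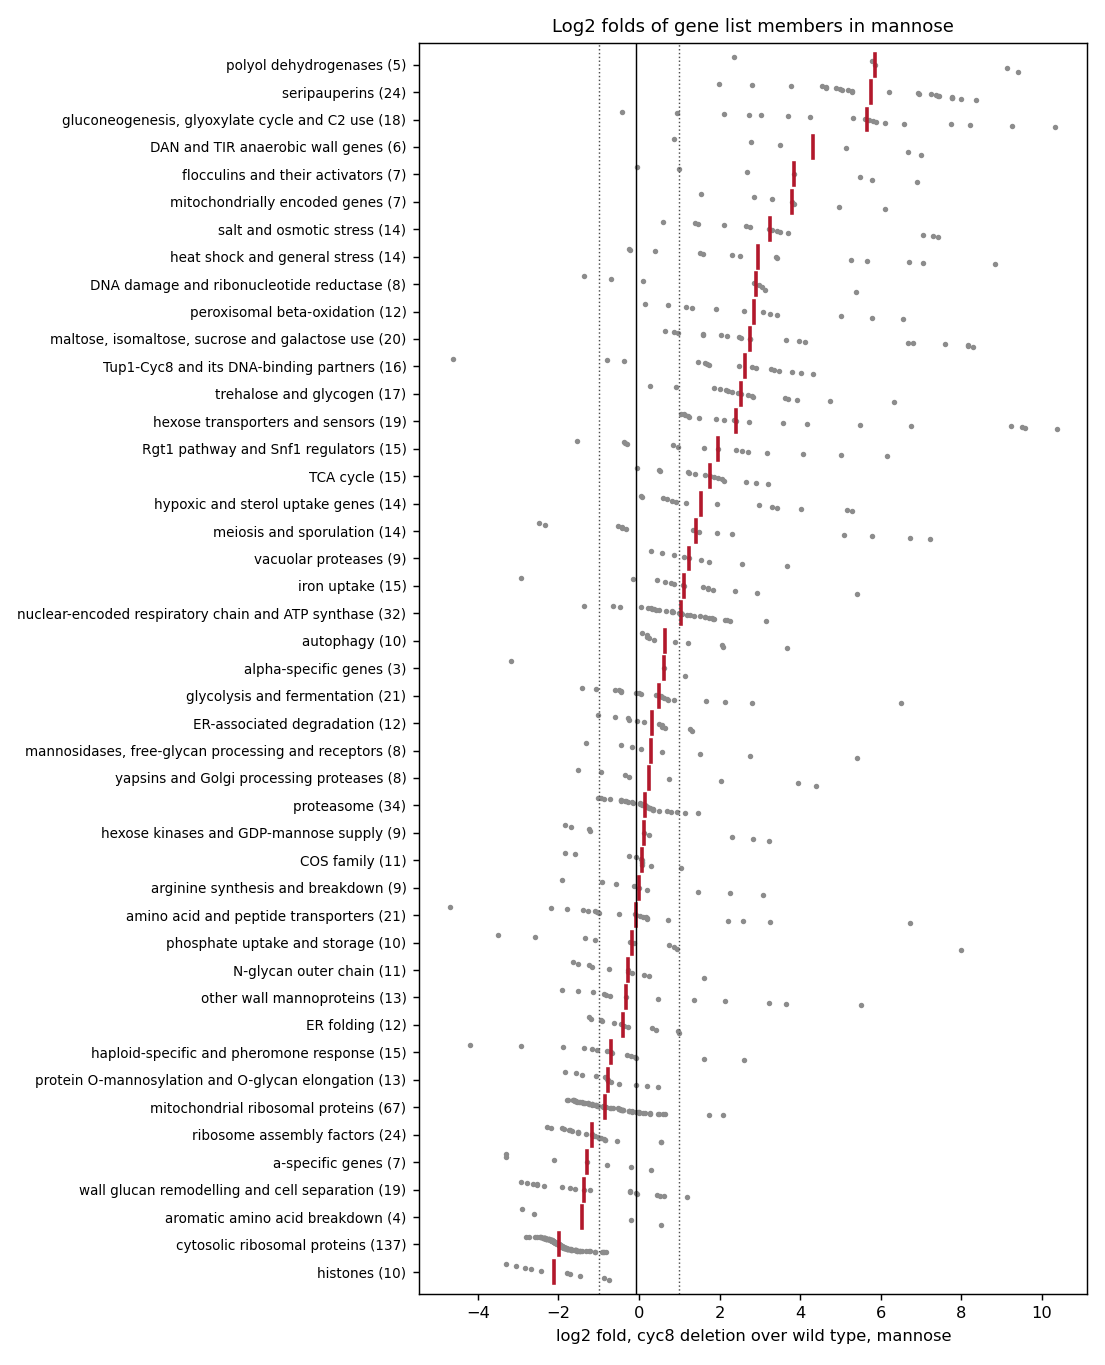
Log2 folds of the cyc8 deletion over wild type in mannose (horizontal axis) for the members of each gene list, with the number measured in brackets. Grey points are genes, red bars list medians, dotted lines a 2-fold difference and the black line the median of all reading frames. Polyol dehydrogenases, seripauperins and gluconeogenesis genes have the highest medians, and histones and cytosolic ribosomal proteins the lowest.

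Wall genes separated by family. All 24 measured seripauperins, small wall and secreted proteins of anaerobic growth, were at least 2-fold higher, with a median log2 fold of 5.75 in mannose and 7.58 in glucose. PAU24 had 1312 CPM in the deletion and 3.96 CPM in wild type in mannose, against 5231 and 4397 CPM in the deletion and 3.17 and 3.56 CPM in wild type in glucose, so the wild-type libraries were alike and the deletion was lower in mannose. Their near-identical copies share reads, and PAU1 and PAU14 had equal counts in each library, so these are not 24 separate measurements. Of the 6 DAN and TIR anaerobic wall genes 5 were at least 2-fold higher, with DAN1 at 7.0 and TIR1 at 6.68, and TIR3 stood at 0.87. Flocculins bind cells to each other and to surfaces, and 5 of the 7 genes on their list were at least 2-fold higher. FLO11 had 1707 CPM in the deletion and 14.2 CPM in wild type, a log2 fold of 6.91, and FLO1, FLO5, FLO9 and FLO10, which hold similar repeats so that their reads may be shared, lay between 2.67 and 5.79. Their activators FLO8 and MSS11 stood at -0.04 and 0.99.

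Of 13 other wall mannoproteins 5 were at least 2-fold higher, beside 24.1% of all reading frames, and 3 lower, beside 21.2%. The lower count was 5 with library totals, 6 with upper-quartile factors and 7 with trends on base composition and length removed. SPI1, a stress-regulated wall protein gene, had 536 CPM in the deletion and 11.7 CPM in wild type, a log2 fold of 5.51, and ECM33 had 376 CPM in the deletion and 1402 CPM in wild type, a log2 fold of -1.90. Among 19 genes of glucan remodelling and cell separation 1 was at least 2-fold higher and 11 were lower, with a median log2 fold of -1.37. The lowest were daughter-cell genes of the septum: DSE2 at -2.93, EGT2 at -2.77 and DSE4 at -2.63. DSE2 had 13.6 CPM in the deletion and 104 CPM in wild type in mannose, and 63.6 and 58.0 CPM in the deletion and 151 and 160 CPM in wild type in glucose, so the deletion in mannose was the lowest of the 6. GAS5, a glucan elongation gene, was the only member at least 2-fold higher, at 1.2.

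Of the 16 genes for Cyc8, Tup1 and the DNA-binding proteins that recruit them or act beside them, 13 were at least 2-fold higher in the deletion and 1, CYC8 itself, lower. NRG1, a repressor of glucose-repressed genes, had 135 CPM in the deletion and 6.68 CPM in wild type in mannose, a log2 fold of 4.33. ROX1, the repressor of hypoxic genes, stood at 4.03, and MIG3 at 3.80 in mannose but 0.12 in glucose. SKO1, a repressor of osmotic genes, stood at -0.38. Among 15 genes of the Rgt1 pathway and of Snf1, the kinase that opposes glucose repression, 9 were higher and 1 lower. REG2 (a phosphatase regulatory subunit), SIP4 and CAT8 (activators of gluconeogenic genes) stood at 6.16, 5.00 and 4.08. CAT8 had 383 CPM in the deletion and 22.6 CPM in wild type in mannose, and 57.2 and 65.8 CPM in the deletion and 10.7 and 11 CPM in wild type in glucose. SNF4, the activating subunit of Snf1, was the only one at least 2-fold lower, at -1.55. MTH1, a corepressor of HXT genes, had 136 CPM in the deletion and 34.6 CPM in wild type in mannose, and 153 and 140 CPM in the deletion and 5.51 and 5.96 CPM in wild type in glucose.

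Stress and reserve genes were mostly higher. In the heat shock and general stress list 11 of 14 genes were at least 2-fold higher and 0 lower, with a median of 2.95. HSP26, for a small heat shock protein, had 7461 CPM in the deletion and 16.2 CPM in wild type in mannose, and 2065 and 2276 CPM in the deletion and 9.84 and 10.8 CPM in wild type in glucose. HSP30, of the plasma membrane, and CTT1, the cytosolic catalase gene, stood at 7.05 and 6.69, while the constitutive chaperone genes SSA2 and HSC82 stood at -0.21 and -0.25. Of 14 salt and osmotic genes 13 were at least 2-fold higher and 0 lower, with SIP18 at 7.41 and STL1, the glycerol importer gene, at 7.31. Of 17 trehalose and glycogen genes 15 were higher and 0 lower: GAC1, a regulator of glycogen synthase, had 539 CPM in the deletion and 6.65 CPM in wild type, a log2 fold of 6.33, and TPS3 stood at 0.28. Of 14 hypoxic and sterol uptake genes 8 were higher and 0 lower. OLE1, the fatty acid desaturase gene, had 7157 CPM in the deletion and 443 CPM in wild type in mannose, but 298 and 297 CPM in the deletion and 401 and 421 CPM in wild type in glucose, so only the mannose deletion library was high. RNR3, for a ribonucleotide reductase subunit made after DNA damage, stood at 5.37, and RNR1, the usual large subunit, at -1.35.

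Genes of protein synthesis were mostly lower. Of 137 cytosolic ribosomal protein genes 133 were at least 2-fold lower and 0 higher, with a median log2 fold of -1.99 in mannose and -0.72 in glucose. Together they took 5.09% of the counts in the deletion (95% Wilson interval 5.08% to 5.10%) and 19.9% (19.88% to 19.90%) in wild type in mannose, 11.9% and 11.5% in the deletion in glucose, and 18.1% in each wild-type library in glucose. RPS22A had 152 CPM in the deletion and 1064 CPM in wild type in mannose, a log2 fold of -2.81, and RPL4A, which differed least, had 2470 CPM in the deletion and 4387 CPM in wild type, a log2 fold of -0.83. Many have a near-identical paralog, so single values are uncertain. Of 24 ribosome assembly factors 16 were lower and 0 higher, with a median of -1.16. BRX1 and GAR1 stood at -2.28 and -2.18, and RPF1 and NOP2 at 0.54. Mitochondrial ribosomal proteins showed 29 of 67 at least 2-fold lower and 2 higher, MRP8 at 2.07 and RSM10 at 1.74. With base composition and length trends removed 18 of the 67 were lower.

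Histones were lower too, with 8 of 10 genes at least 2-fold lower, 0 higher and a median log2 fold of -2.11. HHF1, a histone H4 gene, had 47.4 CPM in the deletion and 466 CPM in wild type in mannose, and 134 and 121 CPM in the deletion and 296 and 289 CPM in wild type in glucose, and its near-identical copy HHF2 stood at -3.06. HHO1, the linker histone gene, and HHT2, a histone H3 gene, differed by less than 2-fold, at -0.75 and -0.86. CLB2, a mitotic cyclin gene, had 9.19 CPM in the deletion and 77.9 CPM in wild type in mannose, a log2 fold of -3.08, against -0.93 in glucose. CLB1, also a mitotic cyclin gene, had 14.0 CPM in the deletion and 74.6 CPM in wild type in mannose, but 52.8 and 52.4 CPM in the deletion and 52.7 and 48.4 CPM in wild type in glucose, so the genotypes overlapped in glucose. PCL9, a cyclin gene for the kinase Pho85, stood at -3.28. The share of dividing cells in these cultures was not measured, and fewer cells of a kind and less RNA per cell cannot be told apart in bulk RNA.

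Mating genes of type a, the strain's own type, were 2-fold lower or more in 4 of 7 cases and higher in 0. STE2, the alpha-factor receptor gene, had 16.4 CPM in the deletion and 163 CPM in wild type in mannose, and 50.8 and 46 CPM in the deletion and 261 and 255 CPM in wild type in glucose. BAR1, the protease gene that degrades alpha-factor, stood at -3.30 and STE6, the a-factor exporter gene, at -2.10. Of 15 haploid-specific and pheromone response genes 6 were lower and 2 higher, with FAR1, for a cell-cycle inhibitor, at -2.93 and RME1, a repressor of meiosis, at 1.63. Of 3 measured alpha-specific genes 1 was higher and 1 lower, both with few counts: MF(ALPHA)1 had 8 counts in the deletion and 5 in wild type, and STE3 had 6 counts in the deletion and 110 in wild type. The third, SAG1, stood at 0.61. Of 14 measured meiosis and sporulation genes 8 were higher and 2 lower, with SPS100 at 7.23, DIT1 at 6.73 and IME1, the master inducer of meiosis, at 5.77.

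Of 10 phosphate uptake and storage genes 1 was at least 2-fold higher and 4 were lower, beside 24.1% and 21.2% of all reading frames. PHO89, a sodium-coupled phosphate transporter gene, had 430 CPM in the deletion and 1.63 CPM in wild type in mannose, a log2 fold of 7.99, while PHO84, the proton-coupled transporter gene, had 10.0 CPM in the deletion and 114 CPM in wild type, a log2 fold of -3.50. Of 15 iron uptake genes 9 were higher and 1 lower. The higher count was 7 with library totals, with upper-quartile factors and with trends on base composition and length removed. FRE4 stood at 5.41 and FIT3, for a wall mannoprotein of iron retention, at 2.92. FRE1, the main surface reductase gene, had 31.3 CPM in the deletion and 239 CPM in wild type. Among 21 amino acid and peptide transporters 4 were higher, beside 24.1% of all reading frames, and 7 lower, beside 21.2%. PUT4, the proline permease gene, had 773 CPM in the deletion and 7.22 CPM in wild type, a log2 fold of 6.73, and GAP1, the general amino acid permease gene, stood at 3.24. TAT2, the tryptophan permease gene, had 26.7 CPM in the deletion and 121 CPM in wild type.

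Of 21 glycolysis and fermentation genes 4 were at least 2-fold higher, beside 24.1% of all reading frames, and 2 were lower, beside 21.2%. Beyond the replicate spread limit lay 12 higher and 6 lower, beside 34.5% and 37.2% of all. PDC6, the minor pyruvate decarboxylase gene, had 162 CPM in the deletion and 1.73 CPM in wild type, a log2 fold of 6.50, and PDC1, the main one, had 9388 CPM in the deletion and 25008 CPM in wild type, a log2 fold of -1.41. PDC5 stood at -1.07. TDH1 and ENO1, isoforms with close paralogs, stood at 2.81 and 2.13. The list took 10.1% of the counts in the deletion and 10.4% in wild type in mannose.

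The same contrast in glucose gave 790 reading frames at least 2-fold higher (12.9%) and 300 lower (4.88%). Its 2 libraries per genotype enter the mannose folds only through scaling and the filter. Of the 1482 higher in mannose 708 were also higher in glucose, 47.8% of the mannose set and 89.6% of the glucose set. Of the 1304 lower in mannose 154 were also lower in glucose, 11.8% of the mannose set and 51.3% of the glucose set. Across the 6146 reading frames, which are not independent, the log2 folds in mannose and glucose had a Pearson r of 0.78 and a Spearman rho of 0.71. The mannose fold exceeded the glucose fold by at least 1 on the log2 scale in 990 reading frames (16.1%) and was below it by at least 1 in 806 (13.1%). These differences rest on 1 library per genotype in mannose and were not tested. By list, the gluconeogenesis median was 5.66 in mannose and 1.61 in glucose and the beta-oxidation median 2.84 and 0.65, while the seripauperin median was lower in mannose, as was that of the ribosomal proteins.

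**Figure D4:**
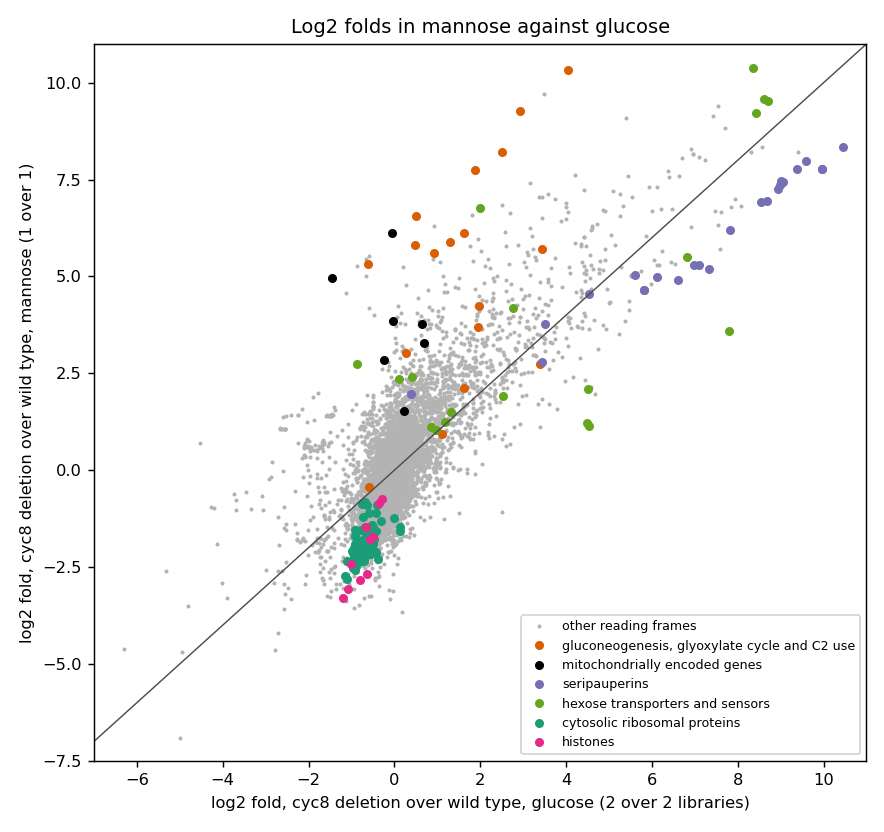
Log2 fold of the cyc8 deletion over wild type in mannose (vertical axis) against that in glucose (horizontal axis), 1 point per reading frame, 6 gene groups in colour, with the line of equality. Gluconeogenesis and mitochondrially encoded genes lie above the line for the most part, and most seripauperins, all ribosomal proteins and all histones lie below it.

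Folds in mannose also moved with base composition. The median log2 fold was -0.40 in the 98 nuclear reading frames with a GC content no higher than 34%, -0.60 in the 392 at 34% to 36%, and 0.70 in the 447 above 46%. In glucose the medians of the lowest and highest groups were -0.20 and 0.26, and between replicates they lay from -0.11 to 0.09. Reading frames of 600 bases or fewer had medians of -0.34 and -0.39 (up to 300 and 300 to 600 bases), and those over 3600 bases 0.32. Between replicates, the second over the first, the medians of the shortest and longest groups were -0.05 and 0.06 in the deletion and 0.12 and -0.10 in wild type. Across 5828 reading frames, which are not independent, the Spearman rho of the mannose fold was 0.22 with GC content and 0.098 with coding length. The replicate difference gave -0.11 and 0.21 in the deletion and 0.24 and -0.31 in wild type, so the replicates were related to both properties as well, over a smaller range of values. With smooth trends on GC content and coding length taken out, 1286 of 5828 reading frames were at least 2-fold higher and 1206 lower, CYC8 stood at -5.48, TUP1 at -1.62 and the gluconeogenesis median at 5.16. Of the gene lists, the ribosomal protein median was then -1.82 and the histone median -1.80.

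**Figure D5:**
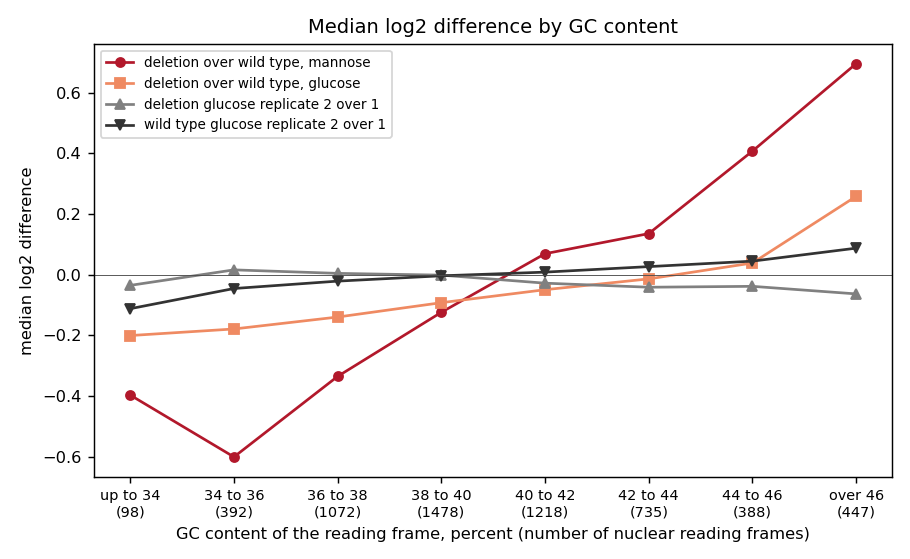
Median log2 difference (vertical axis) of nuclear reading frames in bins of GC content (horizontal axis, number per bin in brackets) for the deletion over wild type in mannose and in glucose, and between glucose replicates. In mannose the medians run between -0.60 and 0.70, wider than the -0.11 to 0.09 between replicates.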

How the data were processed

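Per the labels' protocols, libraries were stranded and ribosomal RNA was removed from the RNA first. The submitters' processing notes name, without roles or order, TopHat2 2.0.9, Bowtie2 2.3.4.2, CASAVA 1.8 and the genome build sacCer3. The deposited files hold the authors' raw counts per open reading frame and a length column (unit other), which equals the reference's codons minus 10 for 5969 of the 6007 reading frames found in the R64 annotation. The other 689 were kept. Not given in the sources used here are the counter, its annotation, its strand setting and how it treated multiply matching reads.

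Counts were scaled with edgeR 4.0.16 in R 4.3.3 (TMM factors 0.868 for the deletion and 0.990 for wild type in mannose) after filterByExpr, and log2 CPM had a prior count of 2. Each mannose group is 1 library, so only folds were computed, with no p-value. The glucose replicate pairs differed by more than counting error (chi-square per degree of freedom 23.7 in the deletion and 11.8 in wild type), so neither pair was a duplicated library. This comparison did not cover the mannose libraries and cannot tell whether replicates came from separate cultures. The scaling was tested on simulated data in which few reading frames changed, with as many higher as lower. The test therefore does not cover differences as broad as those in mannose. LEU2, MET17, URA3, ATP8, MF(ALPHA)2, IME4 and SPS2 are list members that did not pass the filter. In all, 307 reading frames have a near-identical copy (95% identity or more along 80% of the length, BLAST 2.17.0), and 441 were treated as family members.

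Members, the 46 gene lists and the alternatives were chosen with earlier results of these data known. The rule for named genes took CYC8, TUP1 and the marker genes, then, among nuclear genes having a standard symbol and 10 CPM or more, the 15 largest and 15 smallest log2 folds in mannose, the 8 most above and 8 most below the glucose fold, the 3 largest and 3 smallest in each list, and all members of lists no longer than 10. Alternatives were DESeq2 1.42.0 size factors, other scalings, prior counts, filters and fold thresholds, removal of GC content and length trends, and leaving out feature classes or single glucose libraries.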

Additional observations from a re-analysis of the deposited data

Results flagged for a closer look

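ATP6, a mitochondrially encoded subunit gene of ATP synthase, went opposite ways in the 2 sugars. It had 69.9 CPM in the deletion and 2.17 CPM in wild type in mannose, a log2 fold of 4.97, against 40.1 and 16.4 CPM in the deletion and 70.6 and 69.6 CPM in wild type in glucose, a log2 fold of -1.45. The mannose fold minus the glucose fold was 6.42, and this difference was not tested. Wild type in mannose was the lowest of the 6 libraries for ATP6, and the deletion replicates in glucose lay more than 2-fold apart.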

How the results depend on the processing

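No paired analysis was possible because the mannose groups are 1 library each and no test was made. Scaling moved the balance of higher and lower reading frames: the share of higher among those at least 2-fold apart was 53.2% with TMM factors, 56.1% with DESeq2 size factors, 43.9% with library totals and 38.3% with upper-quartile factors, where the median of all was -0.39. Reading frames whose fold was lower by at least 1 in mannose than in glucose numbered 1343 with library totals and 1255 with upper-quartile factors, against 806. CYC8 stood at -4.81 with library totals, -4.95 with upper-quartile factors and -5.48 without GC and length trends. At a fold of 1.5, 2076 reading frames were lower, and at a fold of 4, 751 were higher and 237 lower. List medians were set against a smaller yardstick than the spread limit, the root mean square replicate difference in glucose. On the log2 scale it ran from 0.57 in the lowest band of expression to 0.11 at its smallest. All 46 list medians kept within it with DESeq2 size factors, but 42 moved by more with library totals and 45 with upper-quartile factors. Without GC and length trends 35 of 45 moved by more, and without near-identical families 9 of 42. Medians changed sign for the hexose kinase, arginine, COS family and proteasome lists with library totals and with upper-quartile factors. With upper-quartile factors they also did so for the mannosidase (-0.011), yapsin (-0.067) and ER degradation (-0.0067) lists, and without trends for the kinase (-0.44) and arginine (-0.090) lists. Leaving out a glucose library bears on the mannose folds only through scaling and the filter. Depth limits genes with few counts, such as AZR1 with 6 counts in the deletion.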

Other observations

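Reading frames annotated as gag protein, the capsid protein of retrotransposons, were seen only after their values and form no list chosen earlier. Of 45 measured, 40 were at least 2-fold higher and 1 lower in the deletion in mannose, with a median log2 fold of 1.41, while in glucose 0 were higher and 33 lower, with a median of -1.56. Their median level was 410 CPM in the deletion and 154 CPM in wild type in mannose, against 98.0 and 102 CPM in the deletion and 276 and 281 CPM in wild type in glucose. The difference between the sugars was not tested. The copies are near-identical and share reads, so they are not 45 separate measurements. They made up 28 of the 39 reading frames that were at least 2-fold apart in opposite directions in the 2 sugars, 36 of them higher in mannose and lower in glucose and 3 the reverse.

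Other lists are given by their counts and examples. Their counts stand beside 24.1% of all reading frames at least 2-fold higher and 21.2% lower. Of 34 proteasome genes 2 were at least 2-fold higher and 1 lower, with RPN5 at 1.46 and RPN9 at -1.01, and a median of 0.15 that was -0.035 with library totals and -0.17 with upper-quartile factors. Of 12 genes of ER-associated degradation 2 were higher and 1 lower, with UBX2 at 1.32 and CDC48, the ATPase gene that extracts substrates from the membrane, at 1.28. ER folding genes had 0 of 12 higher and 2 lower, with a median of -0.41. With DESeq2 size factors 2 were higher and 2 lower, and 4 were lower with library totals and with upper-quartile factors. SCJ1 had 13.2 CPM in the deletion and 31.3 CPM in wild type in mannose. KAR2, the main ER chaperone gene, was picked outside the rule for named genes and had 677 CPM in the deletion and 542 CPM in wild type. Autophagy genes had 4 of 10 higher and 0 lower, with a median of 0.63, led by ATG8, for the ubiquitin-like protein of the autophagosome, with 52.0 CPM in the deletion and 4.04 CPM in wild type, a log2 fold of 3.67. Yapsin and Golgi protease genes had 3 of 8 higher and 1 lower, with YPS6 at 4.39 and MKC7 at -1.51. Of 4 aromatic amino acid breakdown genes 2 were lower, ARO9 at -2.90 and ARO10 at -2.60, and the list's median was -1.41. Of 9 arginine genes 3 were higher and 1 lower, with CPA1, for a carbamoyl phosphate synthetase subunit, at 3.09 and CAR1 (arginase) at -1.90. Of 11 COS genes, a family near chromosome ends, 1 was higher and 2 were lower. The higher count was 0 with library totals and with upper-quartile factors. All 11 were treated as family members, so these may not be 11 separate measurements.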
